A study of Mus musculus with 6 samples.

Results

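Of the 21786 gene symbols counted in all 6 testis libraries, 43 carry the names Spata (spermatogenesis associated), Spag (sperm associated antigen) or Tex (testis expressed) followed by a number, leaving out Tex11, Tex12, Tex15 and Spata22. They comprise 16 Spata, 11 Spag and 16 Tex genes, taken by a rule on names that was set with earlier results of these data known. Poly(A) RNA was read from whole testes of 3 Stra8 -/- mice and 3 Stra8 +/+ mice, with C57BL/6 as the strain background. The Stra8-deficient males were 1 year old and had grossly enlarged testes, which hold mostly cells like type A spermatogonia according to the labels. The wild-type males were 2 to 4 months old. Stra8, induced by retinoic acid, is required for meiosis to begin in germ cells. Age and testis size differed together with genotype, so their effects cannot be told apart, and in whole testis fewer cells of a type and less RNA per cell cannot be told apart either.

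Genes received these names for where they were found and not for what they do, so the set spans the whole life of a male germ cell. Some encode parts of the sperm tail, head or surface and are known from spermatids, the haploid cells that build the sperm. Others are known from spermatogonia, the mitotic cells from which spermatogenesis starts: Tex13, Tex14, Tex16 and Tex19 were cloned in a screen for mouse genes expressed in spermatogonia. A further group, among them Spata2, Spata5, Tex10 and Tex264, was named in testis but works in many cell types.

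Gene reads numbered 7883466 to 12425689 per Stra8-deficient library, against 6733128 to 8937224 per wild-type library. The third Stra8-deficient library was counted on another gene list, of 23285 symbols against 22055 in each other file. Markers of spermatids were nearly absent, with a summed level of 4.95 to 13.6 CPM (gene reads scaled to library size with TMM factors) in Stra8-deficient testes, against 28350 to 32680 CPM in wild type, and all 12 were lower. Of 12 markers of undifferentiated spermatogonia 10 were higher and 2 lower, summing to 1208 to 2054 CPM against 93.2 to 104.6 CPM in wild type. Stra8 itself had 211, 249 and 270 reads in the Stra8-deficient testes, against 120, 132 and 93 in wild type, and was not called (log2 fold change 0.21 ± 0.21; edgeR, adjusted p = 0.384). As the deleted part of the allele is not given in the sources used here, this does not check the labels. Summed Leydig and Sertoli cell markers varied among Stra8-deficient testes, each lowest in the second and highest in the third library. Leydig cell markers were at 46.4 to 2807 CPM (wild type 800.8 to 1303 CPM). Sertoli cell markers were at 109.5 to 853.8 CPM (wild type 2249 to 2465 CPM), with 10 of 12 lower and 2 not called. Among these, Clu had 1203, 326 and 8744 reads in the Stra8-deficient testes. The part of Leydig and Sertoli cells in the results was not tested, nor was that of macrophages. Macrophage markers summed to 321.1 to 1263 CPM against 414.9 to 473.6 CPM in wild type, with 6 of 9 higher, 1 lower and 2 not called. The lower one, Aif1, had the most wild-type reads of this list, 2168, 2605 and 1642, against 73, 18 and 351 in Stra8-deficient testes. Of 10 pachytene spermatocyte markers 9 were lower, summing to 196.6 to 240.1 CPM against 10610 to 11430 CPM in wild type, and of 7 markers of differentiating spermatogonia 5 were higher and 1 lower.

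Most of the measured genes of the set were lower in the Stra8-deficient testes, and a minority was higher. Of the 41 that passed the filter on low counts, 27 were lower, 10 higher and 4 not called (quasi-likelihood test of edgeR, adjusted p below 0.05 after Benjamini-Hochberg correction over 15018 genes). In the background of all tested genes 36.7% were lower, 39.0% higher and 75.8% called in either direction, so the lower share of the set, 65.9%, lay above the background and its higher share, 24.4%, below. Of the 41 genes 37 had no overlap between genotypes, against 80.2% of all tested genes. Log2 fold changes are Stra8-deficient over wild type, and ± after one is its approximate standard error. Their median was -4.70 in the set and 0.11 over all tested genes. Placing 2 genes of 0 Stra8-deficient reads at their bound could not move the median of the set, because both stay below it. Genes with almost no Stra8-deficient reads passed the filter through their wild-type counts and could only be lower, so these counts describe the set without serving as support for a direction. For 20 of the genes the change was a log2 value of -5 or less, a size reached by 8.94% of all tested genes.

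**Figure D1:**
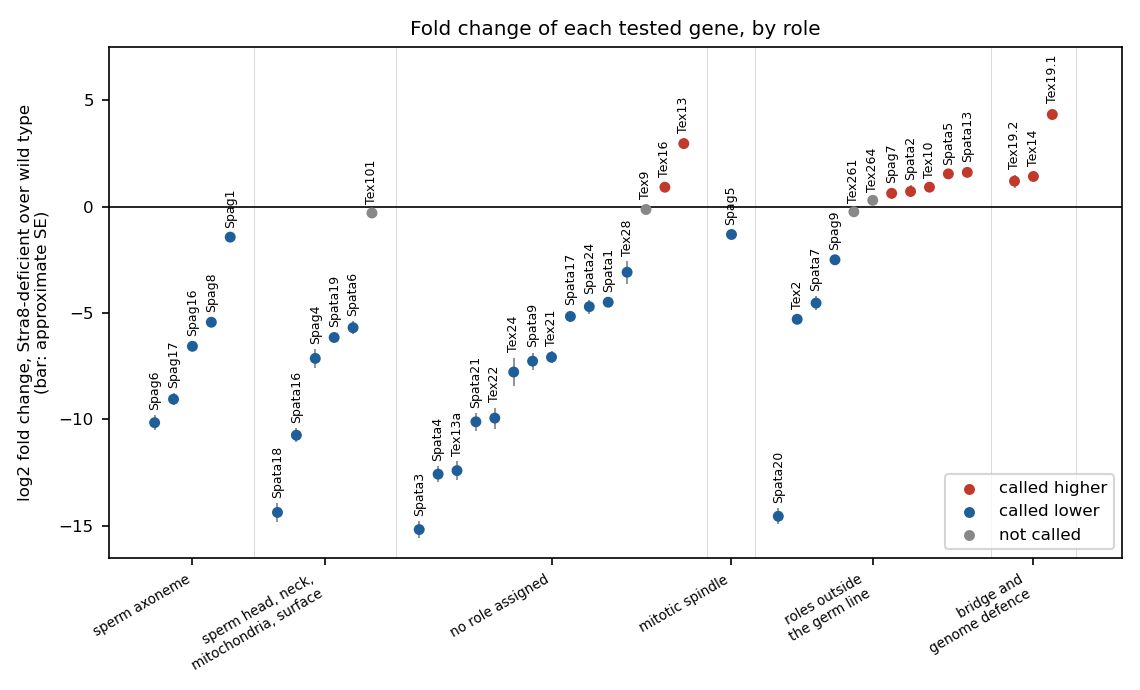
Log2 fold change, Stra8-deficient over wild type, of each of the 41 tested genes, grouped by known role, with approximate standard errors as bars; red points were called higher, blue points lower and grey points not called. The 5 genes grouped under the sperm axoneme lie between -10.15 and -1.43, whereas the 3 genes of the intercellular bridge and germ line genome defence lie between 1.20 and 4.33.

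Together the 43 genes took 0.331%, 0.314% and 0.299% of the gene reads in the Stra8-deficient testes, against 1.11%, 1.14% and 1.09% in wild type. The genes called higher held 0.230 ± 0.0121% of gene reads in Stra8-deficient testes, against 0.0505 ± 0.00148% in wild type (SD, n = 3 each), and the genes called lower 0.0378 ± 0.00189% against 1.03 ± 0.0230%. Because these shares follow from the calls, they are a description without a test. With library size in place of TMM scaling the median of all tested genes moved to 0.73 and higher genes made up 63.6% of all calls instead of 51.5%, while in the set they made up 28.9% instead of 27.0%.

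**Figure D2:**
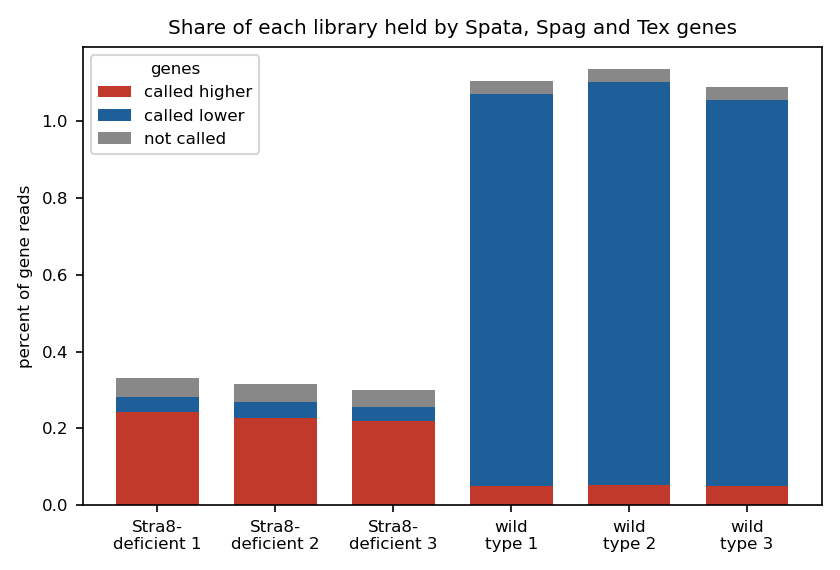
Percent of each library's gene reads held by the Spata, Spag and Tex genes, stacked by whether a gene was called higher (red), lower (blue) or not called (grey) in Stra8-deficient testes. The stacks reach 0.299% to 0.331% in the 3 Stra8-deficient libraries, mostly red, and 1.09% to 1.14% in the 3 wild-type libraries, mostly blue.

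The 5 tested genes grouped under the sperm axoneme, the microtubule core of the tail, were lower without exception (background 36.7% lower). The group includes Spag1, known for assembling dynein arms in the cytoplasm. Spag6, a protein of the central microtubule pair, had 0.201, 0.191 and 0.603 CPM in the Stra8-deficient testes, against 440.5, 423 and 415 CPM in wild type. Spag17, a large protein of the same central apparatus, had 1.20, 2.00 and 1.34 CPM against 771, 830 and 817 CPM in wild type. The groups stood far apart, with at most 21 Stra8-deficient reads per library in either gene, and the log2 fold changes were -10.15 ± 0.35 for Spag6 and -9.05 ± 0.27 for Spag17 (SE; edgeR, adjusted p = 3.48e-08 and 2.71e-08). Without the third Stra8-deficient library, which held 9 of the 13 reads of Spag6 in this genotype, its value was -10.98.

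Spag16, the third central apparatus protein of the set, averaged 1.87 ± 0.342 CPM in Stra8-deficient testes, against 177.9 ± 6.21 CPM in wild type (SD, n = 3 each), and fell by 6.56 ± 0.22 on the log2 scale. Spag8, a microtubule-associated sperm protein, fell by 5.43 ± 0.24 on the same scale. Spag1 is known for assembling dynein arms in the cytoplasm of ciliated cells, and it kept a sizeable level at 40.7, 51.7 and 50.5 CPM against 119, 123 and 144 CPM in wild type (-1.43 ± 0.18; edgeR, adjusted p = 6.78e-05). Of 10 other symbols listed as central apparatus genes 5 were tested and each of these was lower (background 36.7% lower). Spef2 was at -7.14 ± 0.29 and Hydin at -4.12 ± 0.21.

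Among 6 genes of the sperm head, neck, mitochondria and surface, 5 were lower and Tex101 was not called (background 36.7% lower). Spata18, known as a p53 target in mitochondrial quality control, had 1 read in the first Stra8-deficient library and 0 in the others, against 5615, 6534 and 4792 reads in the wild-type libraries. Its wild-type rate was 31656 times the Stra8-deficient rate (95% exact counting interval 5681 to 1250400). Spata16, an acrosome protein whose human mutation gives round-headed sperm, had 0.201, 0.0953 and 0.402 CPM against 439, 448 and 473.6 CPM in wild type. These are 2, 1 and 6 reads, the fewest being in the second library, and the log2 fold change of -10.74 ± 0.34 was -11.45 without the third library (edgeR, adjusted p = 2.71e-08 with it and 4.25e-07 without it). All 7 tested genes of a list of other globozoospermia genes were lower (background 36.7% lower), from Dpy19l2 at -7.50 ± 0.35 to Gopc at -0.96 ± 0.20.

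Spag4, a SUN-domain protein of the spermatid nuclear envelope, had 3.91, 1.52 and 1.07 CPM in the Stra8-deficient testes, against 304, 306 and 278 CPM in wild type. The first Stra8-deficient library was the highest of its genotype, and without it the log2 fold change of -7.13 ± 0.44 was -7.88. In a list of 8 other tested nuclear envelope and head attachment genes Sun3, Odf1 and Lmnb2 were lower, Lmnb1 was higher and 4 were not called. The lower share was near the background of 36.7% lower (39.0% higher). Sun3 was at -7.22 ± 0.26, close in size to Spag4. Spata19, a sperm mitochondrial protein needed for motility, had 4.72, 4.95 and 6.36 CPM against 378, 417 and 353 CPM in wild type (-6.15 ± 0.22). Spata6, of the connecting piece between head and tail, fell by 5.69 ± 0.31 on the log2 scale.

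Tex101 encodes a surface protein of germ cells that is needed for the maturation of the sperm protein ADAM3. It had 183, 192 and 146.5 CPM in the Stra8-deficient testes, against 226, 217 and 199 CPM in wild type. The wild-type values lay above the others by a narrow margin (-0.30 ± 0.17; edgeR, adjusted p = 0.139), the direction changed with library size alone (0.32), and the gene was called without the second Stra8-deficient library (-0.42; edgeR, adjusted p = 0.0478). Its listed partners did otherwise: 8 of 9 tested ADAM3 maturation genes were lower (background 36.7% lower). Among them were Adam3, with 1, 2 and 0 reads against 7793, 9900 and 6992 in wild type, and Ly6k at -3.98 ± 0.56. Tpst2 was higher at 2.58 ± 0.21.

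The other 15 genes had no role assigned, and 12 of them were lower, 2 higher and 1 not called (background 36.7% lower, 39.0% higher). Their median log2 fold change was -7.08. Spata3 had 0 reads in all 3 Stra8-deficient libraries, against 3312, 3778 and 2618 reads in wild type, at least 6047-fold lower against a limit of 3 reads over the group. The X-linked Tex13a, also with 0 Stra8-deficient reads, had 516, 537 and 371 wild-type reads and was at least 887-fold lower. Both were thus unread in Stra8-deficient testes and well covered in each wild-type library. Spata4 had 3, 1 and 1 Stra8-deficient reads, against 6407, 7026 and 4689 in wild type, and its log2 fold change of -12.57 ± 0.38 was -13.35 without the first Stra8-deficient library.

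Spata21, an EF-hand calcium-binding protein, had 2.11, 0.667 and 0.938 CPM against 1339, 1404 and 1312 CPM in wild type. Its log2 fold change was -10.11 ± 0.41, or -10.70 without the first Stra8-deficient library, the highest of its genotype. Tex22 had 3, 5 and 0 reads against 1454, 1699 and 1369 in wild type, and its value of -9.94 ± 0.49 ranged from -10.82 without the second to -9.21 without the third Stra8-deficient library. Tex24 had a single Stra8-deficient read against 176 in wild type, a ratio of 329 (95% exact counting interval 58.3 to 13063).

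Spata9, Tex21 and Spata17, the last with calmodulin-binding motifs, fell by 7.26, 7.08 and 5.16 on the log2 scale. Spata24, known to bind TBP-like proteins, and Spata1 were lower by smaller amounts. Spata24 had 17.3, 12.8 and 29.0 CPM in the Stra8-deficient testes, against 555, 529.6 and 458 CPM in wild type (-4.70 ± 0.32). Spata1 fell by 4.49 ± 0.24 on the log2 scale. Tex28, an X-linked gene at the bottom of the detectable range, had 4, 1 and 3 reads against 12, 18 and 9 in wild type (-3.08 ± 0.53; edgeR, adjusted p = 5.91e-04).

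**Figure D3:**
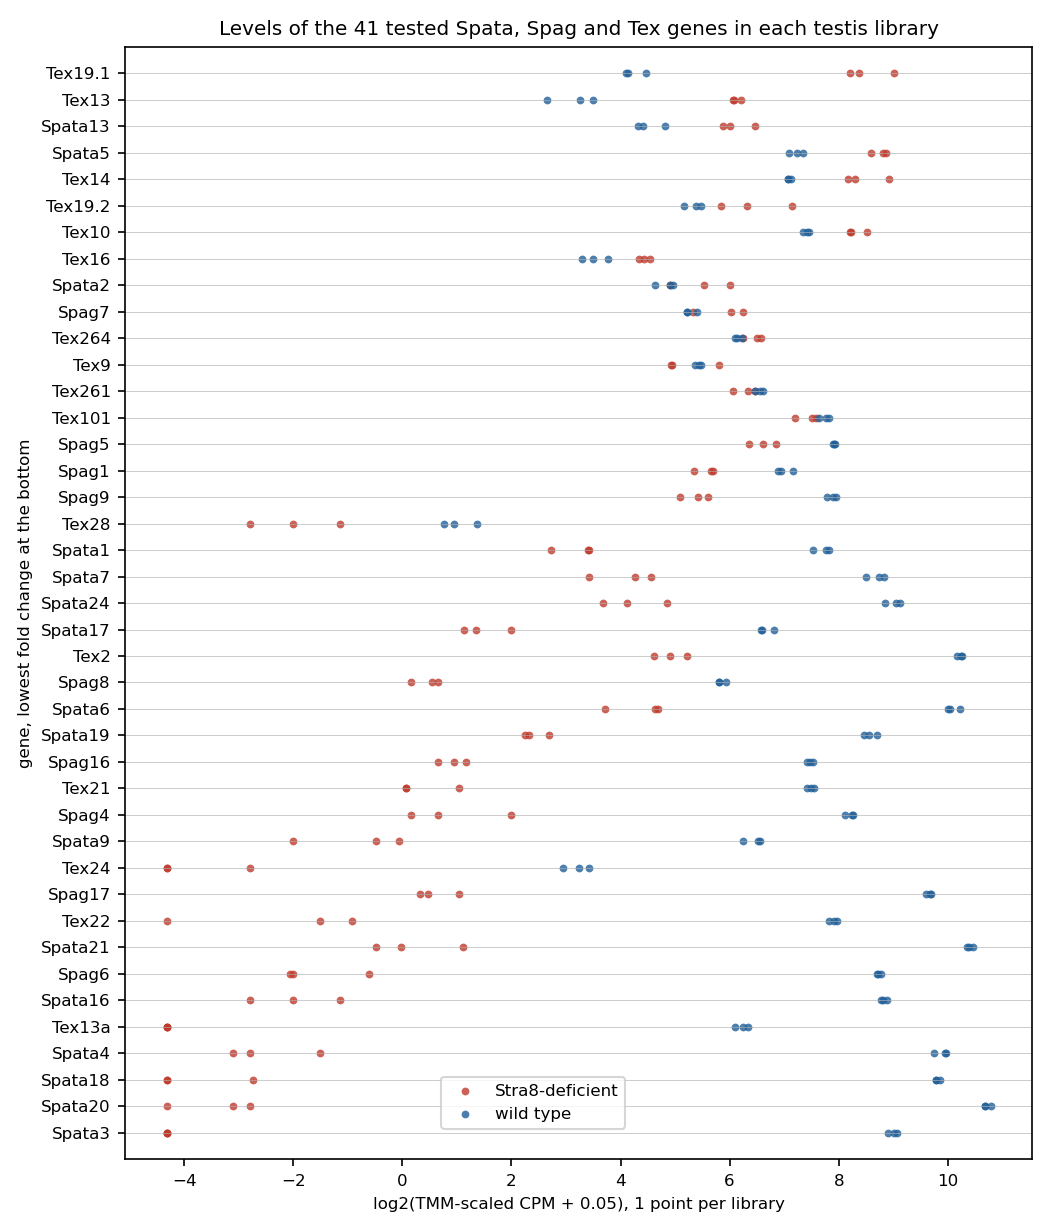
TMM-scaled CPM of the 41 tested genes in each library, as log2 of CPM plus 0.05, with 1 red point for each Stra8-deficient and 1 blue point for each wild-type library and genes ordered by fold change. The 11 called-lower genes under 1 CPM in every Stra8-deficient library lie far to the left of their wild-type points, and the order turns over at the genes that were not called.

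Genes listed with roles outside the germ line went both ways: 5 of the 11 were higher, 4 lower and 2 not called. This split lay near the background of 39.0% higher and 36.7% lower. Spata20, listed in this group although it is a thioredoxin-like protein known from rat spermatids, moved most. It had 0, 1 and 1 Stra8-deficient reads, against 10491, 12517 and 8969 reads in wild type, the most reads of the set in each wild-type library. The wild-type rate was 29876 times the Stra8-deficient rate (95% exact counting interval 8269.9 to 246710). Tex2, an endoplasmic reticulum protein with a lipid-binding domain, followed at 37.3, 29.9 and 24.4 CPM against 1158, 1224 and 1210 CPM in wild type, where it was the third highest by CPM (-5.29 ± 0.23; edgeR, adjusted p = 1.11e-07).

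Spata7, a protein of the photoreceptor connecting cilium, had 10.6, 19.24 and 23.6 CPM in the Stra8-deficient testes, against 429, 455 and 360 CPM in wild type (-4.53 ± 0.31). Spag9, a scaffold for kinases and motor proteins also named JIP4, had 42.9, 48.6 and 33.8 CPM against 221, 239 and 248 CPM in wild type (-2.50 ± 0.19). Neither pair of groups overlapped. The start regions of Spata7 and Spag4 are shown here because they are the 2 among 35 genes of the set with a promoter window that hold the cAMP response element TGACGTCA, a palindrome that occurs in 2.03% of 27025 genes with a window. It starts at -37 from the start site in Spag4 and at -7 in Spata7. The windows run from 250 bases before to 50 after the RefSeq start site (GRCm38.p6), 5′ to 3′ on the gene's strand, with the motif in capitals; the capitals are a match of letters, and binding was not measured. The Spag4 window is chr2:156064963-156065262 on the plus strand and the Spata7 window chr12:98627892-98628191 on the plus strand.

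Spag4: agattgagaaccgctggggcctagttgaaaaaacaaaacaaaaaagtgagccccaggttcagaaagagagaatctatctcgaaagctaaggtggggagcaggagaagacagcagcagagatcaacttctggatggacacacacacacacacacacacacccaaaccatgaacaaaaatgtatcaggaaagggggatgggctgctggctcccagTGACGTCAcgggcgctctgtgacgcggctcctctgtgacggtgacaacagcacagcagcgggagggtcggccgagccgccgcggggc

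Spata7: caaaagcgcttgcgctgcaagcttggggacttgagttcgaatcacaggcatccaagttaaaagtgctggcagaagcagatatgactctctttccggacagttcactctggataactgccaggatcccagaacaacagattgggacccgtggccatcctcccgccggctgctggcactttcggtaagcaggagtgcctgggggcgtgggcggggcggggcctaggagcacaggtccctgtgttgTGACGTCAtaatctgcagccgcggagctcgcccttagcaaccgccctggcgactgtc

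The 5 genes of this group that rose did so by small factors. Spata13 had 88.6, 58.5 and 63.9 CPM in the Stra8-deficient testes, against 27.9, 21.3 and 19.8 CPM in wild type (1.61 ± 0.23; edgeR, adjusted p = 1.94e-04). Spata5, an AAA-type ATPase that acts in ribosome maturation, had 388, 468 and 447 CPM against 151, 162 and 136 CPM in wild type (1.54 ± 0.17; edgeR, adjusted p = 3.53e-05). Tex10, a nucleolar protein of the rixosome, which processes ribosomal RNA, had 300.03, 295 and 367 CPM against 163, 176 and 172 CPM in wild type (0.91 ± 0.17; edgeR, adjusted p = 8.48e-04). In all 3 genes the lowest Stra8-deficient library lay above the highest wild-type library. Of 6 partners of Tex10 listed for the rixosome and the related SENP3 complex, 5 were higher and 1 was not called (background 39.0% higher). Las1l was at 2.15 ± 0.20, Nol9 at 2.06 ± 0.21 and Senp3 at 1.41 ± 0.25.

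Spata2, an adaptor between the deubiquitinase CYLD and the linear ubiquitin ligase, had 64.6, 30.01 and 45.9 CPM in the Stra8-deficient testes, against 31.1, 24.7 and 30.1 CPM in wild type. Spag7, with an R3H nucleic-acid-binding domain, had 39.95, 64.7 and 75.8 CPM against 37.3, 42.4 and 37.4 CPM in wild type. The groups overlapped in both genes and the calls were marginal (0.71 ± 0.28 for Spata2 and 0.62 ± 0.25 for Spag7; edgeR, adjusted p = 0.0437 and 0.0427). Spata2 lost its call without any 1 library except the second Stra8-deficient one, at 0.38 without the first and 0.60 to 0.76 without each other one (edgeR, adjusted p = 0.0704 to 0.159). Spag7 lost its call without any 1 library except the first Stra8-deficient one, at 0.42 without the third and 0.52 to 0.67 without each other one (edgeR, adjusted p = 0.0867 to 0.136). With RLE size factors neither was called. Of 5 tested genes of linear ubiquitin chains and CYLD 3 were higher, 1 lower and 1 not called (background 39.0% higher, 36.7% lower). Rnf31 was at 1.49 ± 0.22, Sharpin at -2.36 ± 0.26 and Cyld at -0.50 ± 0.24.

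Tex264, a receptor for the autophagy of endoplasmic reticulum, and Tex261, a membrane protein of the early secretory pathway, were not called. Tex264 had 95.2, 75.9 and 90.5 CPM in the Stra8-deficient testes, against 70.4, 74.4 and 68.2 CPM in wild type. Although its groups did not overlap, its log2 fold change of 0.30 ± 0.16 missed the threshold (edgeR, adjusted p = 0.126), and it was called higher under scaling by library size (0.91) or upper quartile (0.57) and without the second Stra8-deficient library (0.345). Among 5 other receptors of this autophagy route Sec62 was higher (1.37 ± 0.25), Atl3 (-3.90 ± 0.23) and Fam134b (-3.74 ± 0.29) were lower and 2 were not called (background 39.0% higher, 36.7% lower). Tex261 had 88.3, 81.3 and 66.8 CPM against 87.9, 93.8 and 98.1 CPM in wild type (-0.24 ± 0.17; edgeR, adjusted p = 0.215), with overlapping groups and a sign that turned under scaling by library size (0.38) or upper quartile (0.03).

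The genes of the intercellular bridge and of germ line genome defence, 3 in number, all rose (background 39.0% higher). Tex19.1, a germ cell protein that acts with the ubiquitin ligase UBR2 and restrains transposons, had 514, 297 and 329.9 CPM in the Stra8-deficient testes, against 17.5, 22.2 and 17.1 CPM in wild type. Its log2 fold change of 4.33 ± 0.27 was the highest of the set (edgeR, adjusted p = 9.17e-07). Tex19.2, its neighbouring paralog on chromosome 11, had 142, 57.5 and 80.1 CPM against 44.5, 41.5 and 36.0 CPM in wild type (1.20 ± 0.31; edgeR, adjusted p = 0.00650). In both paralogs the first Stra8-deficient library was highest and the second lowest, by factors of 1.73 for Tex19.1 and 2.47 for Tex19.2. How reads shared by such paralogs were counted is not given in the sources used here, and the counting can leave them out of both genes. The levels of both are therefore uncertain. Of 4 listed genes, the Tex19.1 partner and transposon silencing genes, Ubr2 (0.81 ± 0.17), Dnmt3l (1.88 ± 0.26) and Piwil2 (0.73 ± 0.23) were higher and Mael (-1.18 ± 0.19) was lower (background 39.0% higher, 36.7% lower).

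The start regions of both paralogs are printed because the genes rose together while their promoter composition differs. The Tex19.1 window, chr11:121145893-121146192 on the plus strand, holds 16 CpG dinucleotides and 61.3% G and C, and the Tex19.2 window, chr11:121118628-121118927 on the minus strand, 2 CpG dinucleotides and 45.3% G and C (RefSeq, GRCm38.p6). Capitals mark matches to GTTGCC, a core of X-box sites, and CAACTG, a MYB-type site, on either strand. The Tex19.2 window has a match to each that overlap by 4 bases and a further CAACTG, and the Tex19.1 window has no match to any of the 5 motifs searched.

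Tex19.1: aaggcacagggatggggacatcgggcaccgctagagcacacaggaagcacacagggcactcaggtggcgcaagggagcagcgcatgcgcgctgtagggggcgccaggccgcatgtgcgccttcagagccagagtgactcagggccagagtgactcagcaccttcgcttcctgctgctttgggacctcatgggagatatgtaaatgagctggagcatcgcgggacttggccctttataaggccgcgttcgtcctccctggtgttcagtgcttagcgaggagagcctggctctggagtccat

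Tex19.2: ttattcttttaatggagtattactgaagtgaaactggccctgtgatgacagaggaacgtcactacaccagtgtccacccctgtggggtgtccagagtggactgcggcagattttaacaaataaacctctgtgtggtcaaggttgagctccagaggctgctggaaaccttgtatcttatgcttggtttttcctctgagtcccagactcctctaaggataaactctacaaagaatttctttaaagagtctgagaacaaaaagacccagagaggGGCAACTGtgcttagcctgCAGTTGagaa

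Tex14 keeps the cytoplasmic bridges between sister germ cells open. It had 288, 484 and 314 CPM in the Stra8-deficient testes, against 134, 139.8 and 134 CPM in wild type, with the second library standing above the other two of its genotype (1.42 ± 0.22; edgeR, adjusted p = 3.33e-04). Among 11 other bridge and midbody genes 5 were higher, 2 lower and 4 not called (background 39.0% higher, 36.7% lower). Sept7 rose most (2.23 ± 0.20) and Sept9 fell most (-1.89 ± 0.22). The bridge partners Cep55 and Kif23 were at 0.88 ± 0.17 and 0.71 ± 0.20, and Rbm44 was not called (-0.33 ± 0.18).

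The X-linked genes Tex13 and Tex16 have no assigned role here and rose as well. Tex13, named Tex13b in GENCODE M21, had 68.0, 74.3 and 66.9 CPM in the Stra8-deficient testes, against 6.25, 9.46 and 11.2 CPM in wild type (2.96 ± 0.25; edgeR, adjusted p = 5.28e-06). Tex16 had 21.5, 23.3 and 20.3 CPM against 11.2, 13.6 and 9.72 CPM in wild type (0.91 ± 0.23; edgeR, adjusted p = 0.00519). The groups were apart in both genes, and in Tex13 the Stra8-deficient libraries differed from each other by a smaller factor than the wild-type ones. Tex13a, the X-linked paralog of Tex13, was the gene with 0 Stra8-deficient reads and 68.1 to 80.6 CPM in wild type, so the paralogs moved in opposite directions. Tex28, also X-linked, was lower.

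Spag5, known as astrin, holds sister chromatids and spindle poles together in mitosis and is the spindle gene of the set. It had 98.3, 116 and 81.6 CPM in the Stra8-deficient testes, against 241, 245 and 238 CPM in wild type (-1.29 ± 0.18; edgeR, adjusted p = 1.45e-04). All 3 wild-type libraries lay above the highest Stra8-deficient one. Its listed spindle partners were divided, with 5 of 9 lower, 3 higher and 1 not called (background 36.7% lower, 39.0% higher). D2Ertd750e, the partner that binds astrin directly, was at -2.25 ± 0.20, Cep72 at -4.33 ± 0.18 and Aurka at -1.08 ± 0.17. Aspm was at 1.75 ± 0.23 and Kif11 at 1.39 ± 0.18.

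Tex9 was the remaining gene that was not called. It had 30.3, 30.7 and 56.2 CPM in the Stra8-deficient testes, against 43.1, 41.2 and 44.6 CPM in wild type (-0.13 ± 0.26; edgeR, adjusted p = 0.657). The third Stra8-deficient library, counted on the other gene list, stood above all wild-type libraries and the other two below them. Without that library Tex9 was called lower (-0.50; edgeR, adjusted p = 0.0244), and under scaling by library size or upper quartile its sign was positive (0.48 and 0.13). In GENCODE M21 32.3% of its exon bases overlap exons of Mns1 on the opposite strand, and the part of that overlap in the result was not tested.

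Spag11a and Spag11b, beta-defensin-like genes known from the epididymis, did not pass the filter. Spag11a had 4 reads in the third Stra8-deficient library and 0 in the other 5, and Spag11b 1 read in the first and 0 elsewhere. Both were at or near 0, as were most epididymal markers: 11 of 13 listed genes did not pass the filter, 6 of these had 0 reads in every library, and the list's summed level rested on Cst8 and Rnase10.

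**Figure D4:**
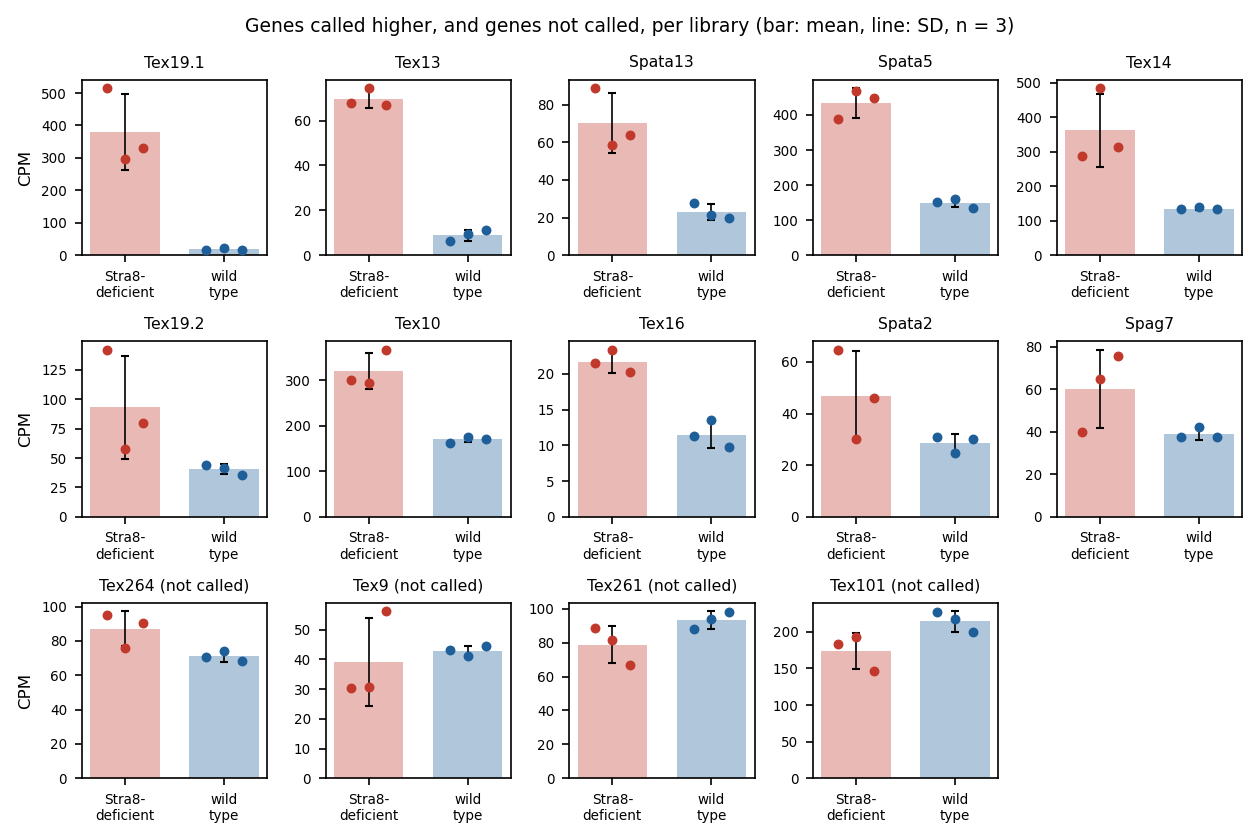
CPM of the 10 genes called higher and the 4 not called, with 1 point per library, bars at the mean and lines for the SD (n = 3 each), Stra8-deficient left of wild type and each panel on its own scale from 0. Tex19.1 averages 380.4 CPM against 18.9 CPM in wild type, while in Spata2 and Spag7 a Stra8-deficient library lies among the wild-type ones.

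The order of levels changed between the genotypes. Levels were compared as mean CPM per kb of exon (GENCODE M21) in 42 genes, since Spag6 is also an older name of a paralog and its length could not be assigned. In Stra8-deficient testes Tex19.1 was first at 203 CPM per kb, followed by Spata5 at 111.7, Tex101 at 105, Tex10 at 73.2, Tex14 at 72.3 and Tex19.2 at 45.6. In wild-type testes the same genes ranked from 12th to 33rd, with Tex101 highest of them at 129 CPM per kb and Tex19.1 lowest at 10.1. The wild-type order was led by Spata4 at 899.6 CPM per kb, Spata20 at 586, Spata21 at 514, Spata24 at 513 and Spata18 at 424, of which Spata24 alone stayed among the first 10 in Stra8-deficient testes, at 19.6 CPM per kb. It ranked 10th there, just above Tex261 at 19.3 CPM per kb. In GENCODE M21 41.9% of the exon bases of Spata24 overlap a coding gene model named SPATA24 on the same strand. The part of that overlap in its level was not tested. Spata21 and Spata24 are neighbours in the wild-type order whose values do not differ beyond their spread. In the Stra8-deficient order Spata5 and Tex101 are such neighbours, as are Tex10 and Tex14.

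**Figure D5:**
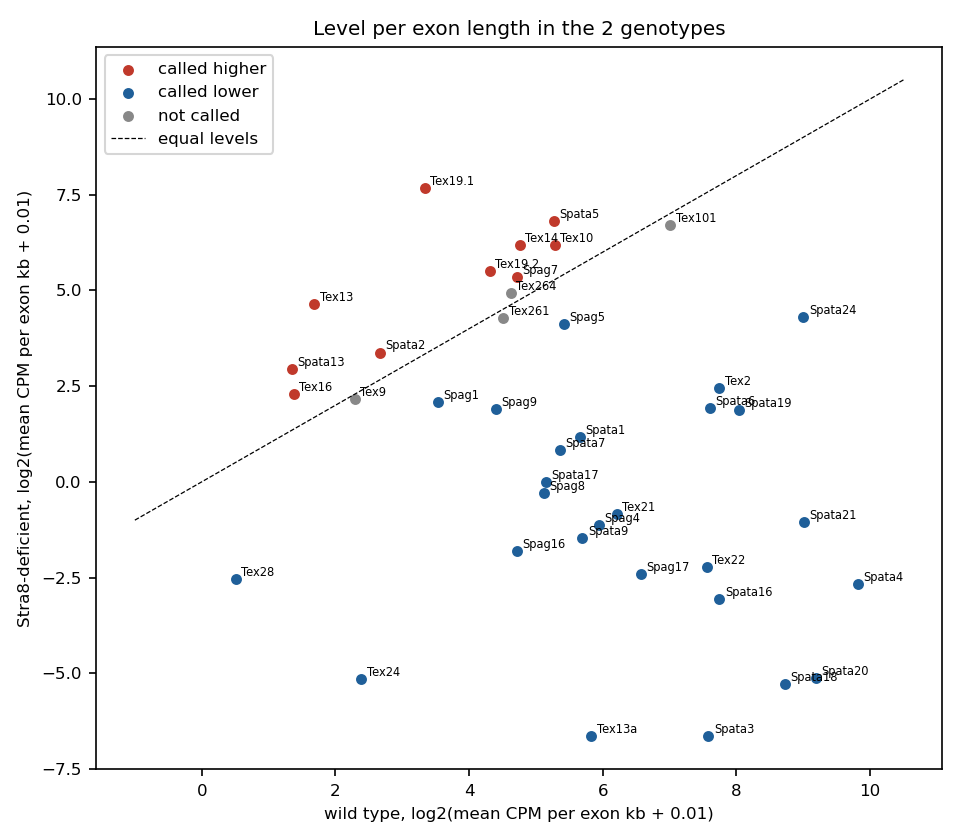
Mean level per kb of exon in Stra8-deficient (vertical) against wild-type testes (horizontal), each as log2 of CPM per kb plus 0.01, with called-higher genes in red, called-lower genes in blue, genes not called in grey and equal levels as a dashed line. Tex101 lies near the line at the top right, Tex19.1 farthest above it, and Spata4, first in wild type at 899.6 CPM per kb, lies at 0.146 CPM per kb in Stra8-deficient testes.

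Libraries of 1 genotype also differed among themselves, which is given as a description without a test. Among the 10 genes called higher the highest Stra8-deficient library exceeded the lowest by up to 2.47 times, in Tex19.2, and the highest wild-type library the lowest by up to 1.79 times, in Tex13. The median coefficient of variation of these genes was 26.1% among Stra8-deficient libraries, against 11.3% among wild-type libraries. No library was extreme throughout. Of the 14 genes called higher or not called, the first Stra8-deficient library was the highest of its genotype in 6, the second in 5 and the third in 3.

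By position, 8 of the 42 genes lie on chromosome 11, of which Spag7, Tex14, Tex19.1 and Tex19.2 were higher and Spag5, Spag9, Spata20 and Tex2 lower. The 4 X-linked genes divided evenly, as given above. Promoter windows from RefSeq were found for 35 of the genes, 10 of them called higher, 21 lower and 4 not called. The median number of CpG dinucleotides was 20.5 in windows of the higher genes, 12 in those of the lower genes, 24 in those not called and 8 over all 27025 genes, taking the window with the most where a gene has several. For other motifs searched on both strands, the E-box CACGTG was in 2 of the 35 genes (8.09% of all genes), GTTGCC in 5 (14.1%), and the MYB-type letters CCGTTG and CAACTG in 4 each (5.90% and 15.4%). These counts describe short windows and say nothing of binding.

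In the authors' deposited table, 27 of the 41 genes were lower and 8 higher at a corrected p below 0.05, and 39 of the 41 had the same call as here. Spata2 and Spag7 were the other two, with log2 ratios of 0.711 and 0.625 and corrected p of 0.0527 and 0.0758 in the authors' deposited table. For genes with more than 3 reads in each genotype the log2 values of the authors' deposited table and those given here differed by at most 0.13.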

How the data were processed

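The authors deposited raw counts, the reads assigned to each gene symbol. Per the submitters' processing notes TopHat, HTSeq and edgeR were used with mm9. No version, annotation or strand setting is given in the sources used here, so reads of overlapping genes and close paralogs are uncertain. The authors' deposited table gives log2 ratios and p-value columns. HTSeq's counters outside genes, 20.9% to 29.8% of a Stra8-deficient and 31.9% to 34.5% of a wild-type library, were left out, and 0 columns were unmatched. The 21786 symbols in all 6 files hold 99.3% to 99.7% of gene reads. A limit of 3 reads equals 0.241 to 0.446 CPM per library; limits and exact counting intervals cover counting error alone.

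Genes passing filterByExpr (15018) were compared with edgeR's quasi-likelihood test (edgeR 4.0.16, R 4.3.3) after TMM scaling (factors 0.796 to 1.27), with genotype as the one term, Benjamini-Hochberg adjustment over all genes and a threshold of 0.05. CPM is TMM-scaled, and a standard error is the log2 fold change over the square root of F, which is approximate. With 0 reads in a genotype the fold is a bound against 3 reads over the group, and with 1 to 3 a ratio of rates with its 95% exact interval. The labels describe separate males. Alternatives were other scalings and filters, DESeq2 1.42.0, edgeR's exact test, glmTreat, a replicate block and leaving out each library. The members, role groups and lists were chosen with earlier results of these data known. Every member could be named, with values in every library for those called higher or not called, paralogs, the 8 called-lower members with the highest wild-type CPM per kb and the 2 largest changes of each role group. Of each list of partner genes the rule names the largest change in each direction. Other partner genes named were chosen after their values were seen. Counts called in role groups and lists of partner genes stand beside a background of 39.0% higher and 36.7% lower over all tested genes. Counts of cell type markers are to be read against the same shares. The files use mm9, so positions and promoter sequences come from RefSeq on GRCm38.p6 and exon lengths from GENCODE M21.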

Additional observations from a re-analysis of the deposited data

Results flagged for a closer look

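Reads of 2 related symbols stood outside the comparisons because 1 file alone lists them. In the third Stra8-deficient library, counted on its own gene list, Spata2l, a paralog of Spata2, had 26 reads and Spata5l1, a paralog of Spata5, 78 reads, each above the limit of 3 reads that a count of 0 allows. The other 5 files spell the first one Spata2L, with 15 and 11 reads in the first and second Stra8-deficient libraries and 197, 237 and 204 reads in the wild-type libraries. As the symbols differ between files and the rule asks for a symbol in all 6, neither was a member, and no test was made.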

How the results depend on the processing

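Over 15 alternatives 31 of the 41 tested genes kept their direction and their side of the threshold in each one. Tex28 did so wherever it was tested but did not pass the stricter filter on low counts (minimum count 30). Genes of the set called lower numbered 26 to 28 throughout. With library size alone the median of the set was -4.09, and reversals came with scaling: Tex101 was at 0.319, Tex261 at 0.376 and Tex9 at 0.476 with library size alone, and Tex261 at 0.033 and Tex9 at 0.135 with upper-quartile factors. Against a fold of 2 (glmTreat), 3826 genes were higher and 5 genes of the set, without Spag7, Spata2, Tex10, Tex16 and Tex19.2, a threshold stricter by construction. Spag7 and Spata2 also missed the threshold with RLE factors and DESeq2. Leaving out 1 library gave 10357 to 11726 calls, 5268 to 5939 higher and 5089 to 5831 lower, 8 to 10 higher and 27 to 28 lower in the set, and medians of -4.98 to -4.63. Same-numbered libraries deviated together weakly (r = 0.058, 0.080 and -0.040 across genes), so the numbers were not taken to pair them; with the replicate block there were 11218 calls, with 10 higher and 27 lower in the set and a median of -4.78. Under 4 reads in a genotype the fitted values depend on single reads: Spata18 was at -15.97 and -13.76 without the first and the third Stra8-deficient library, and Tex24 at -9.37 and -7.17 without the second and the third.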
